A study of Mus musculus with 34 samples.

Results

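Downstream islands are the CpG islands on the array whose probes the array's own annotation mostly places DOWNSTREAM of a gene rather than at its promoter or inside it. CpG islands were taken as runs of at least 3 probes with gaps of at most 500 bases. Of 13616 islands scored, 410 on the autosomes had DOWNSTREAM as their most common probe annotation, and 10 more on chromosome X were left out. How far past a gene this word reaches is not given in the sources used here.

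In mammals most CpG islands that cover a transcription start stay unmethylated in every tissue, while most of the genome outside islands is methylated. Islands away from annotated starts are more variable, and many of them mark starts of other transcripts or stretches near developmental genes bound by Polycomb proteins. Methylation at such places is laid down after implantation by the de novo DNA methyltransferases and copied at each division by Dnmt1.

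Mouse DNA was sonicated and precipitated with an antibody against methylated cytosine (mDIP), and bound DNA (Cy5) was hybridized against input DNA (Cy3). The 34 arrays comprised 16 of adult tissue from mice 3 months old (colon, pancreas, brain, kidney, liver, lung, muscle and spleen, 2 arrays each), 5 of whole embryos at 8.5, 9.5, 10.5, 11.5 and 12.5 dpc, 3 of undifferentiated ES cells (lines EB5, J1 and TT2) and 5 of ES cells differentiated in vitro. The other arrays were of teratomas, tumours grown from ES cells under the skin of immunodeficient NOD-SCID mice (2 arrays, from J1 by the labels and from other ES cells by the methods), and pancreatic endocrine cells (1 array each of natural β cells, the β-cell line Min6 and the α-cell line aTC). The differentiated cells were embryoid bodies (from TT2), retinoic acid treated cells (TT2 by the label, J1 by the study's methods), and endoderm (2 arrays) and mesoderm, which were sorted after Activin A treatment from a reporter line derived from EB5 that carries markers at Gsc and Sox17. The study's methods give C57Bl/6 as the source of the mouse DNA, and no allele or agent was shared by all groups. They do not name the strain of each ES line, so whether strain differed between classes is not known here. Adult mice and embryos were of both sexes, and the ES-derived groups rest on 1 parent line per array. By the study's supplement, the natural β cells came from islets of transgenic mice carrying a Pdx1-GFP construct. The ages of those mice spanned from below to above 3 months, and the cells were sorted with antibodies against insulin. By the labels the 2 arrays of brain, kidney, liver, muscle and spleen came from mice of different sex, and so from separate animals. For the other replicate arrays the labels do not say whether the animals or cultures were separate. The p-values measure the spread between arrays, part of which may be technical. In the comparisons of classes this spread also takes in the tissues, embryo ages and ES lines of a class.

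The island methylation score used below is the mean, over the island's probes, of each probe's log10 bound-to-input ratio after it was turned into a Z-score within its array. A score of 0 is thus the array's average probe, and scores are relative and not percentages of methylation. Input signal stood 3.07 to 7.34 times over background by array and bound signal 1.54 to 5.59 times, and 62.4% to 99.9% of probes had an input signal well above background. The number of arrays limits the precision.

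One array stood apart. Over the 410 downstream islands the array labelled J1 correlated at 0.948 with the mean of the adult arrays, against 0.740 for EB5 and 0.749 for TT2. Its column in the deposited table correlated at 0.113 with its own scanner file, where the other 33 arrays gave 0.894 to 0.991. The retinoic acid treated array also lay nearer to adult tissue (0.817) than embryoid bodies (0.764), mesoderm (0.736) or endoderm (0.645 and 0.730). Counts of calls for the ES comparisons are given with and without these arrays, and their values at the named islands are shown singly. These correlations are across islands, which are not independent replicates.

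The 410 islands held 3 to 27 probes, with a median of 5 against 6 over all islands, and in 388 of them every probe was annotated DOWNSTREAM. They lay on 19 chromosomes, most often on chromosomes 2 (43 islands), 11 (37) and 7 (35), and covered a median of 539 bases in mm9. A gene name was given for 382 of them, with 360 distinct names, and 44 islands shared a name with another.

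Downstream islands were far from the start of the gene they are named for, at a median of 15668 bases (interquartile range 8539 to 35388), and 21 lay more than 100 kb away. A listed transcript start of any gene lay within 1000 bases of 139 islands, and within 100 bases of 117, while 271 islands had no listed start so near. The islands with and without a near start are kept apart in what follows.

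Just 2 of the 139 islands, those of Mafa and Tifp39, came within 1000 bases of a start of their own gene. Mafa encodes an activator of the insulin gene. The Tifp39 gene, now Pth2, encodes a peptide ligand of the parathyroid hormone 2 receptor, and its island (chr7:52436916-52438038, mm9) begins 387 bases past the start and ends 1463 bases past it. The stretch just before that start is shown because it is the only own-gene promoter near a downstream island that could be read. It covers 250 bases of chr7:45180745-45180994 on the + strand (RefSeq, GRCm38.p6), and CG dinucleotides are in capitals.
Pth2 promoter: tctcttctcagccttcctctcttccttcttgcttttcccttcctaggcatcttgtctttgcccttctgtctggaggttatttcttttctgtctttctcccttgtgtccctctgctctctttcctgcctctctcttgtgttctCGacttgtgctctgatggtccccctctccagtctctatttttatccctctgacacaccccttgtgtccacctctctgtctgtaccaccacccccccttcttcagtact
This stretch held 1 CG, where the median over 32851 RefSeq promoters of the same length was 6 and 18.8% held as few. The island itself scored -0.16 on average over the adult arrays. Differentiated ES cells scored 0.23 ± 0.09 (SE) higher, with an adjusted p of 0.0789 by limma. The Mafa island averaged -0.10 over adult tissue.

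Downstream islands scored higher than islands in general in all 8 classes. Among the classes with several arrays the gap was widest in differentiated ES cells, and it was wider still on the single arrays of Min6 and aTC. In adult tissue their median score was -0.09 ± 0.06 (SD of the array medians, n = 16), against -0.20 ± 0.03 over all islands. In differentiated ES cells it was 0.11 ± 0.07 (n = 5) against -0.14 ± 0.02. The medians of the 5 differentiated arrays were all above 0 and above every adult array. Without the retinoic acid treated array the class median was 0.12.

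In embryos the downstream median was -0.14 ± 0.04 (n = 5) against -0.17 ± 0.04 over all islands, the closest of the classes with several arrays. Undifferentiated ES cells gave -0.03 ± 0.06 (n = 3, and 0.0056 without J1) against -0.12 ± 0.06, and teratomas -0.07 ± 0.02 (n = 2) against -0.17 ± 0.02. The pancreatic lines were apart from all of these. Min6 had a downstream median of 0.03 with -0.31 over all islands, and aTC had 0.14 with -0.34, while β cells had -0.00 with -0.14.

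The share of downstream islands above 0.75, the level taken for methylated islands in the study's heat map, moved the same way. It was 17.1% ± 2.3 in adult tissue (SD, n = 16) and 26.2% ± 3.4 in differentiated ES cells (n = 5), against 12.0% ± 1.2 and 15.6% ± 1.9 over all islands. In embryos it was 11.2% ± 0.6, beside 10.9% ± 1.1 over all islands.

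**Figure D1:**
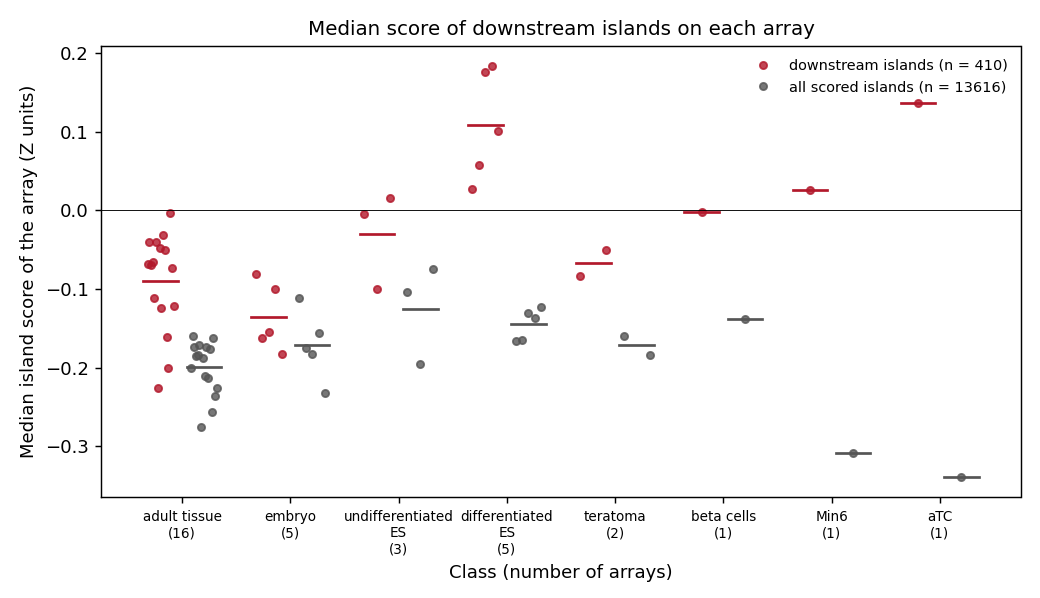
Median island score (Z units) of each array, by class, for the 410 downstream islands (red) and all 13616 scored islands (grey), where each point is an array and each bar the mean of the class. Downstream medians lie above 0 on all 5 differentiated ES arrays and on Min6 and aTC, and below 0 on all 16 adult arrays.

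These levels differed between islands near to and far from a start. Islands with no listed start within 1000 bases had a median of -0.02 ± 0.09 in adult tissue and 0.24 ± 0.10 in differentiated ES cells. For those with a start that near the medians were -0.18 ± 0.04 and -0.12 ± 0.06. In Min6 and aTC the former scored 0.34 and 0.43 and the latter -0.40 and -0.36. Islands annotated PROMOTER had medians of -0.26 ± 0.04 in adult tissue and -0.23 ± 0.02 in differentiated ES cells.

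By the study's thresholds, 84 downstream islands (20.5%) scored below 0 on every adult array, where all islands gave 29.8% and PROMOTER islands 35.0%. INSIDE islands gave 30.7%, and the 1739 islands annotated Unknown gave 21.4%, near the downstream share. Of the 139 downstream islands near a listed start 42 scored below 0 on every adult array (30.2%), and of the other 271 also 42 (15.5%). Above 0.75 on every adult array were 35 downstream islands (8.54%), against 7.37% of all islands and 1.92% of PROMOTER islands. INSIDE islands gave 9.82% and Unknown islands 8.57%. These are descriptions without a test.

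The highest adult levels belonged to Slc7a10, a neutral amino acid transporter, at 3.53 ± 0.34 (SD, n = 16), BC048671 at 3.48 ± 0.38 and Tex264, a receptor for the autophagy of endoplasmic reticulum, at 3.16 ± 0.27. Next came Scn8a, a voltage-gated sodium channel of neurons, at 2.92 ± 0.69. For these 4 islands the lowest adult arrays still read 2.92, 2.87, 2.74 and 1.86. A listed start lay within 1000 bases of each of them, at 469, 23, 407 and 17 bases.

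The lowest adult levels were -0.89 ± 0.28 for Ppp1r16b, a regulatory subunit of protein phosphatase 1, -0.78 ± 0.27 for Wdr5, a core subunit of histone H3K4 methyltransferases, and -0.73 ± 0.27 for Irgm, an interferon-induced GTPase. An unnamed island at chr14:56518869-56519352 (mm9) averaged -0.72 ± 0.28. Their highest adult arrays read -0.48, -0.08, -0.05 and -0.12.

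Differentiated ES cells were compared with adult tissue to see which islands are methylated in vitro beyond their level in the animal. Of the 410 downstream islands, 105 (25.6%) were higher in differentiated ES cells by limma at an adjusted p under 0.05, where 14.4% of all islands were. Another 28 (6.83%) were lower, where 8.73% of all islands were. The median difference was 0.70 among the 105 and -0.74 among the 28, and 0.09 over all 410 against -0.01 over all islands. Homeobox genes (Lbx1, Irx5, Irx4) were among the largest rises, and Scn8a, the Polycomb gene Cbx8 and the blood factor gene Lyl1 among the largest falls.

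The rises came mostly from islands low in adult tissue, and the largest falls from islands high there. As the adult mean enters both numbers, this is a description of the plotted values. The rise was called for 75 of the 271 islands without a near start (27.7%) and for 30 of the 139 with one (21.6%). PROMOTER islands gave 13.4% and INSIDE islands 13.5%. Calls were not counted apart for islands annotated Unknown.

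**Figure D2:**
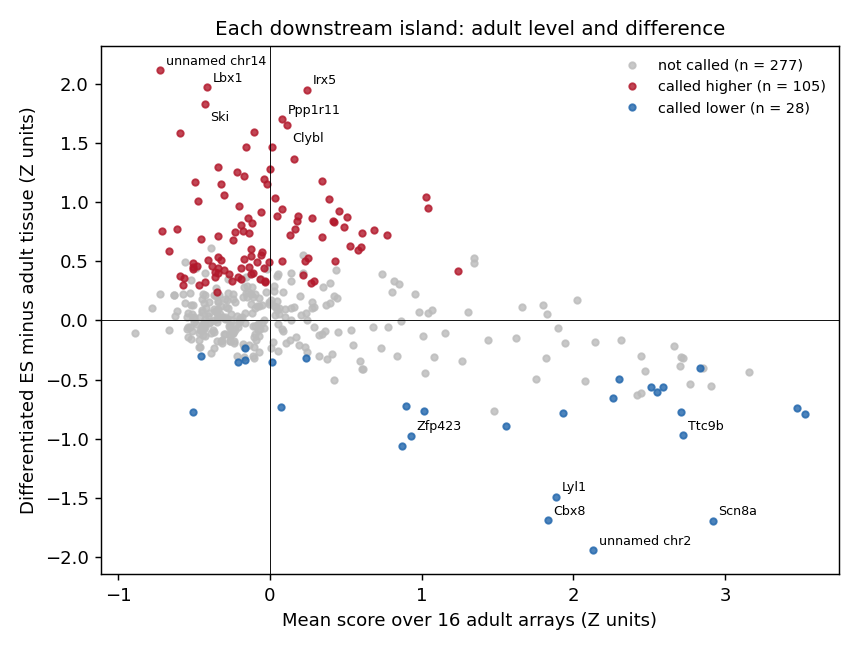
Difference in island score between differentiated ES cells and adult tissue (Z units) against the mean adult score (Z units) for the 410 downstream islands, with red for the 105 called higher, blue for the 28 called lower and grey for the rest. The named islands with the largest rises have adult means between -0.72 and 0.25, and those with the largest falls between 0.93 and 2.92.

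The largest rise was at the unnamed island on chromosome 14 described above, which holds 4 probes and lies 4 bases from a listed start. Its adult scores ran from -1.07 through a median of -0.78 to -0.12. Embryoid bodies gave 1.72, endoderm 1.85 and 1.98, mesoderm 1.37 and retinoic acid treated cells 0.07. All 5 differentiated arrays lay above all 16 adult arrays, with the retinoic acid treated array far below the other 4. The difference was 2.12 ± 0.20 (SE), with an adjusted p of 5.44e-09 by limma, and embryos stayed between -0.46 and -0.26.

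Ski, a co-repressor in TGF-β signalling, followed the same split. The adult arrays ranged from -1.05 through -0.33 to 0.03. Embryoid bodies gave 1.85, endoderm 1.59 and 1.93, mesoderm 1.65, and retinoic acid treated cells -0.03, which lies within the adult range. The difference was 1.83 ± 0.21 (adjusted p = 1.49e-07, limma). The INSIDE island of Ski differed by -0.24 and was not called.

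Clybl, which encodes a mitochondrial citramalyl-CoA lyase, rose alike on every differentiated array. Its adult scores ran from -0.59 through 0.07 to 1.47, the last on brain 2. The differentiated arrays gave 1.85, 1.81, 1.73, 1.80 and 1.60 in the order embryoid bodies, retinoic acid, endoderm 1, endoderm 2 and mesoderm. Every differentiated array was above every adult array, by 1.65 ± 0.19 on average (adjusted p = 1.64e-07, limma). This island (chr14:122805632-122806396) lies 225088 bases past the gene's start.

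Ppp1r11, an inhibitory subunit of protein phosphatase 1, was high on every differentiated array too. Its adult scores ran from -0.31 through -0.01 to 0.74. The differentiated arrays gave 2.01, 1.58, 1.40, 2.01 and 1.91 in the same order. The groups did not overlap, with a difference of 1.70 ± 0.14 and an adjusted p of 8.01e-10 (limma).

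Lbx1, a homeobox factor of migrating muscle precursors and of dorsal spinal cord, rose by 1.98 ± 0.33 (adjusted p = 5.6e-05, limma). The differentiated arrays gave 1.57, 1.16, 2.09, 1.60 and 1.39. Of the adult arrays 14 lay between -0.98 and -0.46, while lung 1 read 1.72 and muscle 2 read 1.35. The second arrays of those tissues, lung 2 (-0.64) and muscle 1 (-0.73), did not share the high value, so the groups overlap through 2 single arrays.

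Irx5, a homeobox factor of the Iroquois family, showed the same unevenness among adult arrays. Its differentiated arrays gave 2.32, 2.90, 1.70, 2.14 and 1.93. Adult brain 2 read 2.86, spleen 1 read 2.06, kidney 2 read 1.65 and muscle 2 read 1.16, against -0.62, -0.40, -0.66 and -0.38 on the other array of each tissue. The difference of 1.95 ± 0.48 was called (adjusted p = 0.00317, limma), though the groups overlapped and the adult SD was 1.10. What set the 2 arrays of a tissue apart at this island was not tested.

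**Figure D3:**
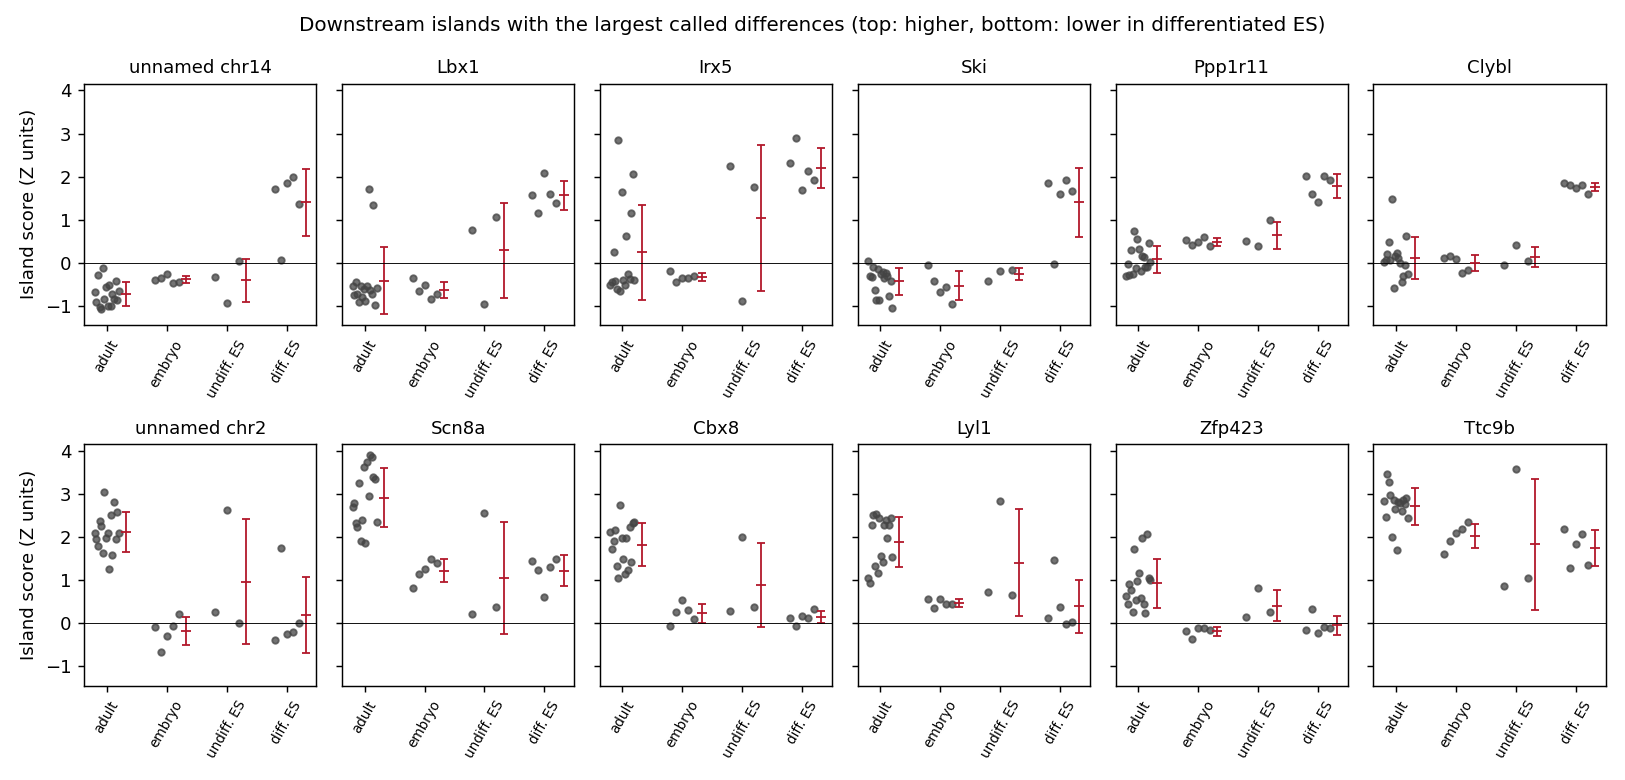
Island scores (Z units) of the 12 named downstream islands with the largest called differences, each point an array, with the mean ± SD of the class as a red bar; top row higher and bottom row lower in differentiated ES cells than in adult tissue. Embryos lie within or near the adult range in the top row and near the differentiated cells for most islands of the bottom row.

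Among the 105 called higher, 14 had all 5 differentiated arrays above all 16 adult arrays, where 2.51% of all islands did and 14 of 410 is 3.41%. Among the 28 called lower, 2 had all 5 below all 16. How many of all islands did so was not counted, so whether 2 is many or few cannot be said. Within slides, where array and slide are shared, embryoid bodies exceeded brain 2 at 91 of the 105 and endoderm 2 exceeded pancreas 1 at 103 of them. Each of these differentiated arrays lay below the adult array of its slide at 25 of the 28 lower islands. The islands were called from these same arrays, so the signs are a description and no separate check, and undifferentiated EB5 exceeded pancreas 2 at 79 of the 105. With slide as a fixed block 64 downstream islands were higher and 16 lower, by limma, among 2058 of the 13616 islands called.

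The 105 islands had medians of 0.61 to 0.81 on 4 differentiated arrays and of 0.27 on the retinoic acid treated one. At the 28 lower islands that array had a median of 1.17, against 0.19 to 0.41 on the other 4 and 1.21 to 2.35 on the adult arrays. Without it 99 downstream islands were higher and 32 lower, among 3376 of all 13616 islands called. These medians describe islands that were chosen by the same values.

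Of the falls, the largest was at an unnamed island at chr2:17961227-17961765 (mm9). Adult scores ran from 1.27 through 2.10 to 3.06. The differentiated arrays gave -0.39 for embryoid bodies, 1.75 for retinoic acid treated cells, -0.24 and -0.20 for endoderm and 0.02 for mesoderm. The retinoic acid treated array alone lay within the adult range, and the difference was -1.94 ± 0.32 (adjusted p = 3.74e-05, limma). All 5 embryos were low too, at -0.66 to 0.22, and J1 (2.64) was high where EB5 (0.26) and TT2 (0.01) were low.

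Scn8a fell from adult scores of 1.86 through 2.87 to 3.90. The differentiated arrays gave 1.45, 1.25, 0.62, 1.31 and 1.50, all below every adult array. The difference was -1.69 ± 0.32 (adjusted p = 0.000245, limma). A second downstream island of Scn8a had an adult mean of 0.20 and a difference of 0.20, and was not called.

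Cbx8, a chromobox subunit of the Polycomb repressive complex that binds methylated histone H3, gave the other fall without overlap. Adult scores ran from 1.05 through 1.95 to 2.76. The differentiated arrays lay between -0.05 and 0.34, the embryos between -0.05 and 0.54, and the difference was -1.69 ± 0.24 (adjusted p = 3.56e-06, limma). EB5 (0.28) and TT2 (0.38) were low and J1 (2.01) was in the adult range.

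At Lyl1, a basic helix-loop-helix factor of blood cells, both downstream islands were lower. The larger fall was -1.49 ± 0.30 (adjusted p = 0.000464, limma), from adult scores of 0.94 through 2.14 to 2.54. The differentiated arrays gave 0.11, 1.48, 0.37, -0.01 and 0.03, where only the retinoic acid treated array reached the adult range. Its second downstream island fell by 1.07.

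Zfp423, a zinc finger factor of adipocyte and cerebellar precursors, fell by 0.98 ± 0.22 (adjusted p = 0.00184, limma), and Ttc9b, a tetratricopeptide repeat protein, by 0.97 ± 0.28 (adjusted p = 0.0114, limma). Adult scores at Zfp423 spread from 0.25 to 2.08 around a mean of 0.93 ± 0.57. Differentiated ES cells averaged -0.05 ± 0.23 there. At Ttc9b they still scored 1.75 ± 0.41 and overlapped the adult arrays.

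Rises from below 0 on every adult array to above 0.75 on at least 1 differentiated array were counted. Of all islands 0.881% showed them, and of islands annotated Unknown 1.21%. Among downstream islands they were seen at 6 (1.46%). Along with the chromosome 14 island these were Irx4, Trim66, Tmem44, Atp5h and Nr2f1. Irx4, another Iroquois factor, gave 1.30, 1.05, 0.77, 0.73 and 1.09 on the differentiated arrays and -1.02 to -0.14 on the adult ones. Its difference was 1.58 ± 0.16 (adjusted p = 3.72e-08, limma).

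At Trim66, a chromatin reader and co-repressor, and Tmem44, a membrane protein, the retinoic acid treated array stayed low while the other 4 rose. It read -0.15 and -0.30 there, against 0.88 to 1.22 and 1.00 to 1.56 on the others. Atp5h, a subunit of mitochondrial ATP synthase, was at 0.43, 1.04 and 0.37 in endoderm 1, endoderm 2 and mesoderm, the arrays from EB5. Embryoid bodies (-0.93) and retinoic acid treated cells (-0.68) stayed within its adult range of -1.09 to -0.14.

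Nr2f1, the nuclear receptor COUP-TFI, reached 1.15 in endoderm 1 only, with 0.22 in endoderm 2 and 0.45 in mesoderm. Both cells labelled TT2 were below 0, at -0.54 and -0.14. A second downstream island of Nr2f1 differed from adult tissue by -0.08 and was not called. The gene's INSIDE island was called lower, by -1.52. For Atp5h and Nr2f1 the parent line moves with the kind of differentiation, and the effects of line and treatment cannot be told apart.

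Developmental transcription factors made up 58 of the downstream islands. Of these 21 were higher and 4 lower in differentiated ES cells than in adult tissue, with a median difference of 0.18, while over all 632 islands named for such genes 122 were higher and 57 lower. At Emx2, a homeobox factor of cortex and urogenital tract, both downstream islands were higher (1.06 and 0.92), and so were both at Hmx1, a homeobox factor of eye and ear (0.38 and 0.82).

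Smaller groups were mixed. Of 6 islands named for ribosomal proteins 3 were higher, Rpl7 by 0.94, Rpl22 by 0.58 and Rpl14 by 0.56, and none was lower, while over all 139 islands of that list 9 were higher and 8 lower. Of 6 islands of zinc finger genes Zfp187 (1.15) and Zfp213 (0.36) were higher and Zfp423 was lower, beside 18 and 35 of all 248. Of 4 islands on the germline list, which also took in Tex264, Tdrd7, a tudor protein of germ cell granules, was higher by 0.52, beside 11 higher and 14 lower of all 58.

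Among 4 signalling ligands Efna2, an ephrin, was higher by 0.86, whereas Bmp4 (0.24), Efnb3 (0.23) and Nog (-0.10) did not pass the test. Over all 191 islands of that list 47 were higher and 15 lower. Among 7 ion channels and receptors Scn8a alone was called, and among 4 solute carriers Slc7a10 alone, lower by 0.79. Over all islands of these lists 74 of 294 channel and receptor islands were higher and 33 lower, and 59 of 219 solute carrier islands were higher and 14 lower. No island of the 3 adhesion and matrix genes or the 2 histone genes was called, and no downstream island was named for an imprinted gene on the list used.

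The other islands of the same genes are set beside the called downstream islands as a description, since the downstream ones were chosen by their call and the others were not. Of the 105 higher islands 62 belong to a gene with an INSIDE island, and in 14 of these an INSIDE island was also called higher, in 7 lower. Where the downstream island was not called, this was so at 15 and 14 of 134. A gene can hold several INSIDE islands, while of single INSIDE islands 13.5% were called higher and 9.65% lower. Among the 62 the median difference was 0.78 at the downstream island and -0.02 at the INSIDE one. For the 27 with a PROMOTER island the medians were 0.63 and 0.14, with 5 called higher and 5 lower, beside 4 and 5 of 53 where the downstream island was not called. Of the 28 lower islands 12 belong to a gene with an INSIDE island, called higher in 3 and lower in 2, with medians of -0.78 downstream and -0.14 inside. For the 8 with a PROMOTER island, called higher in 2 and lower in 1, the medians were -0.67 and 0.11.

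At Lbx1 the INSIDE island differed by 0.00 beside 1.98 downstream, and at Irx5 by -0.07 beside 1.95, and neither INSIDE island was called. Irx4 was different, since 2 of its 3 INSIDE islands were higher as well, with a mean difference of 1.11 over the 3. At Emx2 the PROMOTER island was higher by 1.29. Beside the falls at Lyl1, 1 of its 2 INSIDE islands was called higher, with a mean difference of 0.60 over the 2. Likewise 1 of the 3 PROMOTER islands of Cbx8 was called higher, with a mean difference of 0.35 over the 3.

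Of the 22 genes with several downstream islands, Emx2 and Hmx1 had all of them called higher and Lyl1 all lower. No gene had one island called higher and another lower. In 12 of the 22 the differences had the same sign.

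Embryos were compared with adult tissue as cells of an early stage that developed in vivo. Here 16 downstream islands were higher (3.90%) and 34 lower (8.29%), where 5.17% and 3.47% of all islands were. The median difference was -0.03 over the 410 islands and 0.04 over all islands. Of the 34 lower islands 27 had no listed start within 1000 bases, and of the 16 higher ones 11 had one. Islands near a start were thus higher at 11 and lower at 7 of 139, and the others higher at 5 and lower at 27 of 271. Every embryo array was read with another scanner software version than the adult arrays, and no slide held both. With slide, software version or scan day as a fixed block limma called 0 of the 410. Over all 13616 islands it called 3, 7 and 0 in place of 1176. Class and these conditions cannot be told apart.

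Urm1, a ubiquitin-like modifier of transfer RNA, was lowest in embryos relative to adult tissue. Adult scores ran from 2.39 through 2.90 to 3.51. The embryos gave -0.02, -0.50, -0.20, 0.47 and 1.39 from 8.5 to 12.5 dpc, all below every adult array, with the 2 latest ages the highest. By the labels the 12.5 dpc embryo was female and the others male, so age and sex cannot be told apart there. The difference was -2.68 ± 0.26 (adjusted p = 2.12e-07, limma). Differentiated ES cells were near adult tissue at this island, at 1.85 to 2.88.

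An unnamed island at chr4:41444417-41446514 (18 probes) behaved alike. Embryos gave 0.44, -0.18, -0.29, -0.18 and 0.15 beside 1.17 to 3.10 in adult tissue, and the difference was -2.49 ± 0.31 (adjusted p = 9.18e-06, limma). The differentiated arrays were at 1.31 to 2.37. The chromosome 2 island came next, at -2.31 ± 0.32 (adjusted p = 2.69e-05, limma), and here the differentiated cells were low too.

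Higher in embryos were Cmtm6, a membrane protein that stabilizes PD-L1, by 1.02 ± 0.14 (adjusted p = 2.96e-05, limma) and Bola3, a factor of iron-sulfur cluster assembly, by 0.83 ± 0.16. Tecta, an inner ear matrix protein, was higher by 0.76 ± 0.25 with an adjusted p of 0.0491 (limma). At Cmtm6 the embryos read 0.56 to 1.01 and the adult arrays -0.69 to 0.32, without overlap. Bola3 turned to -0.29 with slide and -0.27 with software version as a block. None of the 58 developmental transcription factor islands was higher in embryos and 7 were lower, beside 0 and 72 of the 632 over all islands.

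Differentiated ES cells were next set against embryos. Here 101 downstream islands were higher (24.6%) and 12 lower (2.93%), where 11.8% and 9.29% of all islands were. This comparison and that with adult tissue share the differentiated arrays. With slide as a block limma called 4 islands in place of 113, with software version 11 and with scan day 13. Over all 13616 islands these blocks left 94, 192 and 365 calls in place of 2872. Without the retinoic acid treated array 107 were higher and 19 lower, among 3263 of all 13616 islands called.

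Irx5 led with 2.53 ± 0.59 (adjusted p = 0.00269, limma), from embryo scores of -0.45 to -0.19, but its difference was -0.05 with slide as a block. Foxf1a, a forkhead factor of visceral mesenchyme, gave -1.01 to -0.45 in embryos and 2.14, 2.08, 0.86, 1.04 and 1.49 in differentiated cells. The groups did not overlap, and the difference was 2.24 ± 0.24 (adjusted p = 2.39e-07, limma). Lbx1 followed with 2.19 ± 0.41.

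The 3 largest falls against embryos were smaller. Allc, an allantoicase, was lower by 0.99 ± 0.17, B230118G17Rik by 0.94 ± 0.16 and A030009H04Rik by 0.86 ± 0.19. The lowest differentiated arrays there still read 1.19, 1.58 and 1.42. Embryos scored 2.60, 2.88 and 2.66 on average at these islands.

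**Figure D4:**
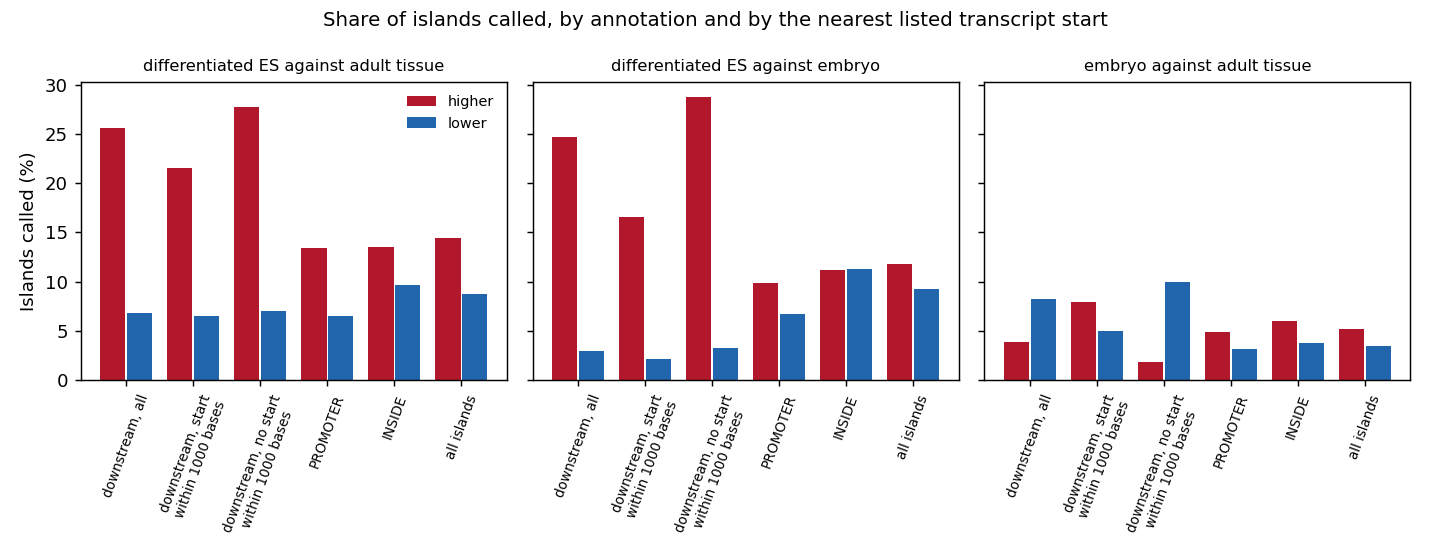
Percentage of islands called higher (red) or lower (blue) by limma in 3 comparisons, for all downstream islands, those with and without a listed transcript start within 1000 bases, PROMOTER islands, INSIDE islands and all scored islands. Downstream islands have a larger share of rises than PROMOTER, INSIDE or all islands in both comparisons of differentiated ES cells, at 25.6% and 24.6%. Calls were not counted apart for islands annotated Unknown. In embryos falls outnumber rises among downstream islands without a near start (27 against 5) but not among those with one (7 against 11).

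Undifferentiated ES cells were compared with adult tissue and with their differentiated products. Against adult tissue 5 downstream islands were higher (1.22%) and 6 lower (1.46%), where 0.984% and 1.31% of all islands were. These counts rest on 3 arrays of which J1 stood apart. Without J1 there were 19 higher and 26 lower, among 1151 of all 13616 islands called. Without EB5 or without TT2 limma called 0 of all 13616 islands, with 44 and 38 downstream islands at an unadjusted p under 0.05.

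Dapk3, a death-associated protein kinase, shows the split. EB5 read 1.91 and TT2 1.64, above all adult arrays (-0.86 to 0.64), while J1 read -0.51. The difference was 1.17 ± 0.31 (adjusted p = 0.0424, limma). At E030013G06Rik (0.81 ± 0.17) EB5 (1.41) and TT2 (1.80) were above and J1 (0.75) within the adult range of 0.07 to 0.87.

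Irx4 was higher by 0.84 ± 0.20, with 0.42 in EB5, 0.95 in TT2 and -0.65 in J1. Lower were Scn8a (-1.86 ± 0.40), Dennd1a, an activator of Rab35 in endocytosis (-1.49 ± 0.29), and Sall1, a zinc finger factor of kidney development (-1.43 ± 0.29). At Sall1 EB5 (-0.92) and TT2 (-0.95) lay with the embryos (-0.90 to -0.12), and J1 (0.82) with adult tissue (0.40 to 1.96).

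From undifferentiated to differentiated ES cells 25 downstream islands rose (6.10%) and 3 fell (0.732%), where 3.51% and 1.92% of all islands did. Without J1 there were 22 and 2, among 488 of all islands called, and without the retinoic acid treated array 45 and 13, among 1365. The count depended on the analysis. The methods' t-test with Benjamini-Hochberg adjustment called 0 of the 410 (55 at an unadjusted p under 0.05). Limma called 2 with only the 2 classes in the fit and 3 after normexp background correction. Over all 13616 islands these settings called 0, 4 and 33 in place of 739, so the loss was not particular to downstream islands.

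The unnamed chromosome 14 island rose by 1.81 ± 0.28 (adjusted p = 0.000344, limma), Ski by 1.67 ± 0.30 (adjusted p = 0.00114, limma) and Clybl by 1.63 ± 0.27 (adjusted p = 0.000615, limma). At Clybl the undifferentiated arrays read -0.05, 0.41 and 0.04, each below the 5 differentiated arrays. Irx5 and Lbx1, by contrast, were already high in EB5 (2.24 and 0.76) and TT2 (1.76 and 1.07) and low in J1 (-0.90 and -0.97), and passed no test in this comparison.

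The 3 falls were Kctd19, a BTB domain protein (-0.87 ± 0.20), Cpt1b, the muscle form of carnitine palmitoyltransferase (-0.80 ± 0.23), and Ap1g1, a subunit of the clathrin adaptor AP-1 (-0.43 ± 0.12). Kctd19 stayed high, at 1.74 to 3.12 in differentiated cells against 3.12 to 3.51 before. Cpt1b and Ap1g1 were not called without J1. Cpt1b scored 0.15 higher rather than lower in the deposited table.

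Teratomas were compared with adult tissue as ES cells that differentiated within an animal. Here 1 downstream island was higher (0.244%) and 0 lower, where 0.272% and 0.0441% of all islands were, and 46 of the 410 had an unadjusted p under 0.05 in the same limma fit. Over the downstream islands the 2 teratomas correlated at 0.919 and 0.942 with the adult mean. The undifferentiated array of J1, their labelled parent line, did so at 0.948, so differentiation in the animal and parent line cannot be told apart. The called island was that of Api5, an inhibitor of apoptosis, with 0.79 and 0.66 in teratomas and -0.72 to -0.27 in adult tissue, a difference of 1.16 ± 0.10 (adjusted p = 3.25e-06, limma). No other array exceeded 0.16 at this island.

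The 8 adult tissues differed at 3 downstream islands by limma's F-test (0.732%), where 0.0808% of all islands did, and in each the colon was highest. The 2 colon arrays shared a scan day with no other tissue, so tissue and scan day cannot be told apart. With scan day or slide as a block limma called 0 of the 410, and 0 of all 13616 islands.

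Foxa2, a forkhead factor of endoderm and its organs, gave 1.97 and 1.84 in colon. The other 14 adult arrays ranged from -0.99 in spleen 1 to -0.24 in pancreas 2, far below both colon arrays. The F was 78.2 with an adjusted p of 0.000138 (limma). Natural β cells scored 2.94 at this island (chr2:147864276-147864668), above the colon, while Min6 gave 0.80 and aTC -1.17.

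Nrn1, a surface protein that promotes neurite outgrowth, gave 2.10 and 1.77 in colon and -0.82 to -0.18 elsewhere (F = 38.6, adjusted p = 0.00322, limma). Unlike Foxa2 it was low in β cells, at -0.39. Llgl2, an epithelial polarity protein, was graded, with 1.40 and 1.47 in colon, 0.86 and 0.71 in pancreas and -0.12 to 0.57 in the other tissues (F = 23.8, adjusted p = 0.0125, limma). Its island was also higher in differentiated ES cells than in adult tissue, by 0.92 ± 0.19 (adjusted p = 0.000544, limma).

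**Figure D5:**
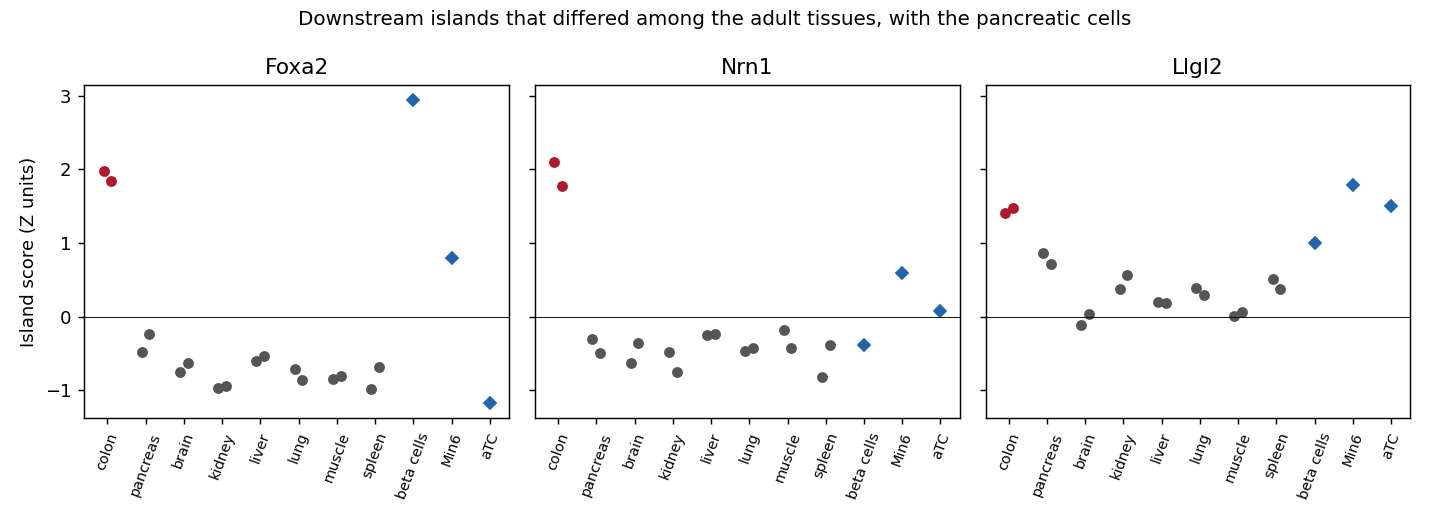
Island scores (Z units) of the 3 downstream islands that differed among the adult tissues, with the 2 arrays of each tissue as circles (colon in red) and the single β-cell, Min6 and aTC arrays as blue diamonds. Both colon arrays lie above the other 14 adult arrays at each island, and β cells are higher than colon at Foxa2 only.

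Both arrays of the colon were above the other 14 adult arrays at 16 downstream islands (3.90%, with 4.34% over all islands). For pancreas this held at 9 (2.20%, with 1.6% over all islands). It held at 1 in brain (0.749% of all islands), 0 in kidney (0.0294%), 2 in liver (0.272%), 1 in lung (0.47%), 0 in muscle (0.147%) and 1 in spleen (0.184%). Replicate arrays of a tissue correlated over the downstream islands at 0.747 in brain to 0.964 in colon.

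The pancreatic cells have 1 array each, so their differences have no replicate check. The mean of the lines Min6 and aTC exceeded β cells by more than 1 at 50 downstream islands (12.2%), where 7.1% of all islands did, and fell short by more than 1 at 11 (2.68%), where 3.46% did. Of the 50 islands 43 had no listed start within 1000 bases.

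The lines were highest relative to β cells at Foxd2, a forkhead factor, with 1.59 in Min6 and 1.96 in aTC against -0.34. Otx1, a homeobox factor of the forebrain, gave 2.11 and 1.92 against -0.04, and no other array exceeded 1.04 there. Irx5 gave 1.72 and 1.42 against -0.39, and Nr2f1 0.59 and 0.91 against -1.11. Otx1 and Foxd2 were not called in any other comparison.

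The reverse held at Foxa2 (difference -3.13) and at Grm4, a metabotropic glutamate receptor, with 3.11 in β cells and 0.62 and 1.29 in the lines. Tecta gave 1.61 in β cells and -0.56 and -0.01 in the lines, and Atp5e, a subunit of ATP synthase, 3.22 and 1.57 and 1.65. At Mafa, whose product β cells depend on, β cells read -0.03 and Min6 -0.22, while the α-cell line read 0.94.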

How the data were processed

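mDIP was measured on 34 Agilent 2-colour arrays on 23 slides. The authors deposited scanner files with background-subtracted, linearly dye-normalized intensity values and the log10 ratio of bound over input, and a processed table holding a score per probe, a Z-score taken according to probe Tm. Within each array the log10 ratios of non-control, unflagged probes were converted to Z-scores without the Tm step and averaged over islands. Annotation came from the 1 scanner file that carries it, and mm9 positions from the 6 arrays whose headers name that build.

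All 13616 islands, X and Y included, were fitted with limma 3.58.1 (lmFit, eBayes) in R 4.3.3 with Benjamini-Hochberg adjustment at 0.05. One fit held the 4 classes, with teratomas and the 8 tissues fitted apart. Tables were made in Python 3.11.15 with numpy 2.4.6 and pandas 2.3.3. Named islands were the largest called differences of each comparison, the adult extremes, the largest differences between pancreatic arrays and examples from gene lists, of which 1 is not reported here. The members and lists were chosen with earlier results of these data known. In simulated data of 13616 islands with 200 changed by 1, 91.5% were recovered in the comparison of differentiated ES cells and adult tissue. Among the tissues, 0% were recovered at a change of 1 and 82% at 2. The simulated noise was independent and normal, without slide, scan day or software effects, so these shares do not cover such effects. Alternatives were the standardisation, background correction (normexp, offset 50, on median signals), the deposited table, dim probes, the probe minimum, island medians, thresholds, blocks, the methods' t-test and arrays left out.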

Additional observations from a re-analysis of the deposited data

Results flagged for a closer look

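Among the named islands, 96 sets of 5 arrays (embryos or differentiated ES cells) were searched for an array whose gap to its nearest neighbour exceeds Dixon's critical value of 0.710 of the range. Chance gives about 1 in 20 only for independent sets not chosen by their values. Many of these islands were named for differences on the same arrays, so the search is a description. It found 12 values (12.5%). The retinoic acid treated array held 5 of them, reading 1.75 at the unnamed chromosome 2 island, -0.025 at Ski, -0.15 at Trim66, 1.48 at Lyl1 and 0.35 at Zfp423. Endoderm 1 was low at Scn8a (0.62) and Slc7a10 (1.92). Mesoderm was low at the unnamed chromosome 4 island (1.31) and at Tecta (-0.33). Of the embryos, 8.5 dpc was low at Allc (2.11) and 9.5 dpc was low at Irx4 (-0.95) and Zfp423 (-0.36).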

How the results depend on the processing

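In all, 584 values of named islands under the alternatives kept direction and side of the threshold, 169 kept direction only and 4 reversed. The reversals were Bola3 in embryos (-0.29 with slide, -0.27 with software version), Irx5 against embryos (-0.050 with slide) and Cpt1b against undifferentiated ES cells (0.15 in the deposited table). For differentiated ES cells against adult tissue the 133 calls became 88 with normexp, 43 in the deposited table, 80 without dim probes, 73 with at least 5 probes and 80 with slide as a block. The share higher fell from 78.9% to 67.7% (67 and 32 islands) with median and MAD standardisation. Against embryos the 113 calls became 75 with MAD, 45 with normexp, 42 in the table, 74 without dim probes, 59 with 5 probes, 4 with slide, 11 with software version and 13 with scan day, and the log2 scale gave 76 higher and 24 lower. Over all islands the calls against adult tissue went from 3155 to 1827 with normexp and 2058 with slide. Against embryos they went from 2872 to 1756 with MAD, 775 with normexp, 94 with slide, 192 with software version and 365 with scan day. The table, the dim-probe filter and the probe minimum test fewer downstream islands (141, 227 and 217). Of the other changes the cause was not tested.

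Embryos against adult tissue gave 16 with normexp, 19 in the table, 28 without dim probes, 25 with 5 probes and 0 with slide, software version or scan day. Undifferentiated ES cells against adult tissue (11) gave 0 with MAD, log2, normexp, scan day or the methods' t-test, 33 in the table, 4 with 5 probes, 3 with software version and 4 with only those classes fitted, and 0 to 45 with an array left out. Differentiated against undifferentiated cells (28) gave 12 with MAD and log2, 3 with normexp, 11 with slide, 2 with only those classes and 0 with the t-test, and 16 to 58 with an array left out. It gave 16 without EB5 or endoderm 2, 17 without mesoderm and 58 without the retinoic acid treated array. Over all islands (739) this comparison gave 225 with MAD, 228 with log2, 33 with normexp and 184 with slide. With only those classes it gave 4 and with the t-test 0. Teratomas gave 16 with normexp, 2 with island medians and 0 with slide or scan day. The tissues gave 1 with MAD, without dim probes or with 5 probes, 0 with normexp, the table, slide or scan day, and 1 to 4 with an array left out, where 1 came without colon 1. Replicate numbers cannot stand for the same animal in all tissues. By the sex labels replicate 1 is male in colon and pancreas and female in the other tissues. Replicate 2 is female in lung and male in the others. Whether tissues of the same sex were paired is not given by the labels. Of 28 pairs of tissues 9 had correlated deviations over 0.1 (median 0.06, range -0.33 to 0.47), which cannot decide that. The replicate block gave 3 calls.

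Islands below 0 on all adult arrays (84) numbered 43 with MAD, 34 in the table, 54 with 5 probes, and 11 and 170 with thresholds of -0.25 and 0.25. Those above 0.75 (35) numbered 12 with normexp, 13 in the table, 21 without dim probes and 19 with 5 probes. The 6 islands that met both thresholds became 3 with MAD or without dim probes, 19 with normexp, 1 in the table or with 5 probes, and 0 and 18 with the other thresholds. The median score changed to 0.072 (MAD) and -0.17 (normexp) in adult tissue, -0.035 (MAD) in embryos, and 0.061 and -0.12 in undifferentiated ES cells. In differentiated ES cells it became 0.20 (MAD), -0.018 (normexp), 0.013 (dim probes) and -0.019 (5 probes). In teratomas it became 0.051 (MAD), -0.10 (table), -0.15 (dim probes), -0.036 (island median) and -0.13 (5 probes). Software version could not be a block among the tissues, which share 1 version.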
